A study of Homo sapiens with 12 samples.

Results

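The heat shock chaperone genes described here are 50 of the 59542 gene rows of a count table of SKOV-3 cells, a long-established line from a human ovarian adenocarcinoma. They were chosen by gene name only: the HSP70 (HSPA), small heat shock protein (HSPB), HSP90 (HSP90AA1 and HSP90AB1), HSP60 and HSP10 (HSPD1 and HSPE1) and HSPH1 genes, the DNAJA and DNAJB co-chaperones, the BAG family genes BAG1 to BAG6, and the factors HSF1 and HSF2. The endoplasmic reticulum genes HSPA5, DNAJB9 and DNAJB11 were left out by name. Most of the products work in the cytosol and nucleus, but the names also take in mitochondrial proteins (HSPA9, HSPD1, HSPE1 and DNAJA3), HSPA13 and the ER-membrane J-proteins DNAJB12 and DNAJB14. They also take in HSPA7 and DNAJB3, both annotated as pseudogenes, so the set is wider than cytosolic chaperones.

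RNA was measured by poly(A) sequencing in 12 libraries, 3 in each of 4 groups. Parental SKOV-3 cells had the wild-type (WT) genotype and no drug resistance. SKOV-3 CDDP cells were the cisplatin-resistant line with the WT genotype. The other two groups were the derivatives of each line in which KDM5A and KDM5B, the genes of 2 enzymes that take methyl groups off histone H3 lysine 4, were both knocked out. The series title links KDM5 proteins to cisplatin resistance, so chaperone levels were compared between resistant and parental cells, and between knockout and WT cells of each line. The labels name no drug added at harvest, do not say whether a knockout was 1 clone or a pool, and give no separate culture for each library. The p-values therefore describe the scatter among these libraries, part of which may be technical.

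Chaperones bind unfolded or partly folded proteins and keep them from aggregating. HSP70 proteins bind short hydrophobic stretches in a cycle of ATP hydrolysis that J-proteins start and that several BAG proteins and HSPH1 reset by releasing ADP, HSP90 takes over clients such as kinases and steroid receptors, and small heat shock proteins hold aggregating clients without using ATP. HSF1 is the main factor that raises these transcripts when unfolded protein accumulates, and it binds arrays of the unit GAA in alternating orientation, the heat shock element.

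The promoters of 5 members are shown because their transcripts carry the main patterns below. HSPA1A, HSPA1B, HSPA8 and HSP90AA1 are the heat-inducible and abundant chaperones that moved together in single libraries, and HSPB8 was one of the genes that rose in resistant cells. Each sequence is the 250 bases before the RefSeq transcript start (GRCh38.p14), 5′ to 3′ on the gene's strand, and capitals mark matches to GAANNTTC or TTCNNGAA. The intervals are chr6:31815293-31815542 (+ strand) for HSPA1A, chr6:31827488-31827737 (+) for HSPA1B, chr11:123062137-123062386 (− strand) for HSPA8, chr14:102087045-102087294 (−) for HSP90AA1 and chr12:119178681-119178930 (+) for HSPB8.
HSPA1A: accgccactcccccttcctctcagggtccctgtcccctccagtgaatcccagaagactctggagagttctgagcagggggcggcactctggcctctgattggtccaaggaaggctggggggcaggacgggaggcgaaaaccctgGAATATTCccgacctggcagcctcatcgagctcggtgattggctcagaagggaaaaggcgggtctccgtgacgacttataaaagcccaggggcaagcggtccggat
HSPA1B: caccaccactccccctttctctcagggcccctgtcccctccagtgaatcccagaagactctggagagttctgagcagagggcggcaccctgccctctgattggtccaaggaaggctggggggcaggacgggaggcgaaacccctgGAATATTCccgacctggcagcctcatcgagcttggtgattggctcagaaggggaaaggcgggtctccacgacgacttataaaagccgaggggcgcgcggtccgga
HSPA8: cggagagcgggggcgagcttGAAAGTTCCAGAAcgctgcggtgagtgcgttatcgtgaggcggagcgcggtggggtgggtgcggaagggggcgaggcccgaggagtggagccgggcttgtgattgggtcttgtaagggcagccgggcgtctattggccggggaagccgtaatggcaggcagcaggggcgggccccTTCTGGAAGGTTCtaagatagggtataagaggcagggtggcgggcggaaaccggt
HSP90AA1: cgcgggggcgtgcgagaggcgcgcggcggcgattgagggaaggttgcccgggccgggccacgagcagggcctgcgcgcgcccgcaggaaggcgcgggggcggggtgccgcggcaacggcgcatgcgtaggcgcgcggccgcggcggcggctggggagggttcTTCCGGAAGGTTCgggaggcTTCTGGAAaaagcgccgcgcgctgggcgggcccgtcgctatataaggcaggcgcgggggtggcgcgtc
HSPB8: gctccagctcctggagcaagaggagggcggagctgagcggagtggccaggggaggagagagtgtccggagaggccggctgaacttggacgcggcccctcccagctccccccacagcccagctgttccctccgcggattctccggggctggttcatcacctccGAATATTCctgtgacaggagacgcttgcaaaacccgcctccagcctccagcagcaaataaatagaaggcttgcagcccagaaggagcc

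HSPA8 held 2 matches to the 3-unit element (GAA, TTC and GAA in turn, or TTC, GAA and TTC, with 2 bases of any kind between units, which covers both strands), GAAAGTTCCAGAA from base -230 and TTCTGGAAGGTTC from base -55. HSP90AA1 held TTCCGGAAGGTTC from base -88, and the separate 2-unit match TTCTGGAA from base -68. HSPA1A and HSPA1B each held a single GAATATTC, from bases -106 and -105, and their 300-base windows, which run 50 bases past the start, were 92.3% identical. HSPB8 also held GAATATTC, from base -88. Of the other genes that rose or fell in resistant against parental cells below, HSPA1L held a 2-unit match. HSPB7, DNAJB12, DNAJB5, BAG1 and BAG5 held none, and HSF1 had no matched window. RefSeq promoter windows were matched for 42 of the 50 members, with 57 windows in all. The 3-unit element was found in 7 of these 57 windows (12.3%), in DNAJA1, DNAJB6, HSP90AA1, HSP90AB1, HSPA6, HSPA8 and HSPD1, against 172 of 35116 windows of all genes (0.49%). The 2-unit element, which every 3-unit match contains, was found in 22 of the 57 (38.6%) and in 13.5% of all windows. A match describes letters in a window and was not tested as a binding site.

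Levels below are CPM, each library's counts scaled to a common effective library size. Each library held between 15659352 and 19706754 counts. The KDM5A transcript was lower in the knockout libraries, at 15.6 to 22.5 CPM against 30.9 to 41.5 in parental cells and 12.0 to 17.6 against 33.4 to 39.9 in resistant cells, while KDM5B libraries overlapped within each line. Epithelial carcinoma markers were present in every group, with 8 to 11 of 12 at 1 CPM or more, but their levels differed. In resistant against parental libraries EPCAM (1.52 to 6.71 against 28.8 to 42.9 CPM), KRT19, MSLN, FOLR1 and ERBB2 were lower without overlap. KRT8 (1075 to 1774 against 144 to 280 CPM), KRT18 and WT1 were higher without overlap, and the other markers overlapped. Summed fibroblast markers (9 genes) ran from 1.97 to 8.80 CPM in parental, 2.56 to 28.7 in parental knockout, 350.0 to 960.4 in resistant and 2527 to 4470 in resistant knockout libraries. Most of the resistant-line sums was COL1A1, at 345 to 939 CPM in resistant and 2499 to 4372 in resistant knockout libraries. COL1A2, COL3A1, PDGFRA and PDGFRB were also higher in resistant than parental libraries, at 7.30 CPM or less. DCN was lower (0.0584 to 0.105 against 1.08 to 3.62 CPM), and LUM, FAP and THY1 overlapped. The sums thus differed between the lines and, in resistant cells, with the knockout, mainly through COL1A1. Their part in the chaperone results was not tested. Neuronal markers (4 genes) summed to 9.26 to 16.8 CPM in parental lines and 17.6 to 42.9 in resistant lines. The erythroid, endothelial and muscle sums stayed at or below 3.00 CPM in every library. Leukocyte markers summed to 24.1 to 95.4 CPM in parental lines and 11.3 to 22.5 CPM in resistant lines, with 1 of 8 genes at 1 CPM or more in each group, and CD3E at 0 in both parental groups. In these bulk samples fewer cells of a type and less RNA per cell cannot be told apart.

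Single libraries differed from their groups in these genes, the libraries numbered 3 of the parental and parental knockout groups by most. Over the 42 members tested, parental library 3 had a root mean square deviation of 0.74 on the log2 scale from its group mean, against 0.49 and 0.44 for libraries 1 and 2. In the parental knockout the values were 0.92 for library 3 against 0.49 and 0.62. Resistant library 1 was at 0.56 against 0.27 and 0.39, and resistant knockout library 3 at 0.57 against 0.27 and 0.34. Over all genes tested, the deviation was 0.45 for parental library 3 and 0.53 for parental knockout library 3, below their values over members. It was 0.51 for resistant library 1 and 0.52 for resistant knockout library 3, so these deviated about as much over all genes as over members. Resistant knockout library 3 was at 3.33 times the mean of libraries 1 and 2 for HSPA8, 2.69 times for HSP90AA1, 2.96 times for HSPH1 and 3.08 times for BAG1. Left out singly, resistant library 1 gave 10 members called in resistant against parental cells and resistant knockout library 3 gave 9 among knockouts, in place of 8 in each. LDOC1, a gene picked after its values were seen, had 0 reads in all 6 parental-line libraries and 57.0 to 106 CPM in the 6 resistant-line libraries. Because it was picked for this split, it describes the libraries and does not test their labels. Calls that rest on the parental libraries are given with and without both libraries 3. Because these were left out for the levels of the same genes, p-values without them are not independent of that choice. Members that passed without them but not with all libraries are given by their values and not as having risen or fallen. The removal was on the parental side only. Resistant knockout library 3 stayed in, which adds to the fold changes among knockouts of genes high in it.

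Summed over the 50 members, the chaperone transcripts took 5062, 6472 and 6486 CPM in parental libraries 1 to 3, 4986, 6615 and 7312 in the parental knockout, 4936, 7203 and 8508 in resistant cells and 6110.4, 5918 and 12347 in the resistant knockout. Resistant knockout library 3 was the highest of the 12 and resistant library 1 the lowest, and all 4 groups overlapped. The sum in resistant cells was 6882 ± 1807 CPM (SD, n = 3) against 6006 ± 818 in parental cells, a difference smaller than the spread within the resistant group.

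**Figure D1:**
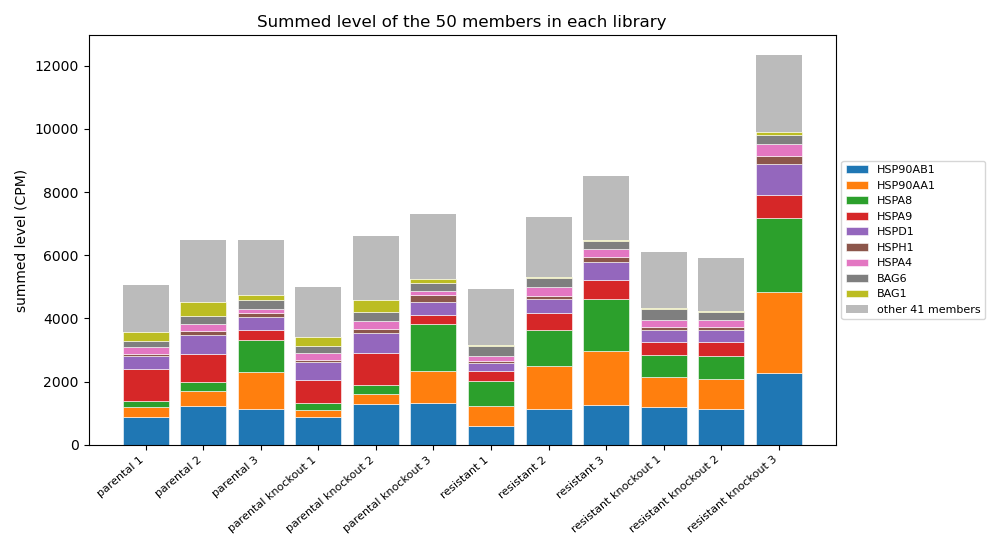
Stacked bars give the summed level in CPM of the 50 members in each of the 12 libraries, with 9 abundant or changed members coloured and the other 41 in grey. Resistant knockout library 3 is the tallest at 12347 CPM, and resistant library 1 the shortest at 4936 CPM.

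Per kilobase of exon, so that genes can be compared, HSP90AB1 was the most abundant member in all 4 groups, at mean levels of 361 CPM per kb in parental and 336 in resistant cells. HSP90AA1 (125), HSPD1 (110.1) and HSPA8 (104) followed in parental cells. In resistant cells the order after HSP90AB1 was HSPA8 (248), HSP90AA1 (233) and HSPD1 (100.3). In parental cells every HSP90AB1 library lay above those of the other genes named, which overlapped each other. In resistant cells every HSPA8 library lay above every HSPD1 library, while each pair of neighbours in the order overlapped. At the other end, 8 members stayed below the count filter (DNAJB3, DNAJB7, DNAJB8, HSPA7, HSPB2, HSPB3, HSPB6 and HSPB9), of which DNAJB3, HSPB2 and HSPB3 had no reads.

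In resistant against parental cells, 8 of the 42 members tested changed. HSPB7, HSPB8, HSPA1L, DNAJB12 and DNAJB5 rose (5 members, beside 15.2% of all genes tested), and BAG1, BAG5 and HSF1 fell (3 members, beside 12.8%; edgeR's quasi-likelihood test, Benjamini-Hochberg adjusted over 17947 genes). That is 19.0% of members, beside 28.0% of all genes tested, so the share called was no higher than the background. The median log2 fold change of the members was 0.23, beside 0.02 for all genes. Groups did not overlap for 8 members that were higher and 4 that were lower, beside 23.7% and 21.8% of all genes. Among the knockout libraries 8 members again changed, beside 23.9% of all genes. HSPB7, HSPB8, HSPA1L, DNAJB5 and DNAJB12 rose there too, BAG1 and BAG5 fell, and HSPA12A fell in place of HSF1, beside 13.6% of all genes that rose and 10.2% that fell. The median log2 fold change was 0.19, beside -0.0023 for all genes, and groups did not overlap for 10 members that were higher and 5 that were lower, beside 20.3% and 16.9%. These comparisons share no library, but they come from the same fit, and same-numbered parental and parental knockout libraries deviated together. A gene called in both is therefore not an independent repeat.

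Without the parental libraries 3, 14 members were past the threshold in resistant against parental cells, beside 28.5% of all genes. Of these, 10 were higher (background 14.6%) and 4 lower (14.0%). Among knockouts 15 were past it, beside 26.8%, with 11 higher (14.1%) and 4 lower (12.6%). HSPA1A, HSPA1B, HSPA2, HSPA8 and HSPA4L, higher, and DNAJA3, lower, were past it in both comparisons here but not with all libraries, all 6 with parental libraries 3 at least 2-fold away from libraries 1 and 2. The number of chaperones called thus depended on these libraries.

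All 8 genes called with all libraries in resistant against parental cells, and 6 of the 8 called among knockouts, were also called without the libraries 3. In resistant against parental cells the log2 fold change of HSPB8 was then 2.92 ± 0.57 (SE, adjusted p = 0.00382), that of HSPA1L 2.46 ± 0.64 (SE, adjusted p = 0.0150) and that of BAG1 -3.55 ± 0.50 (SE, adjusted p = 0.000557). It was 1.43 ± 0.35 (SE, adjusted p = 0.0111) for DNAJB12, 1.26 ± 0.35 (SE, adjusted p = 0.0209) for DNAJB5, -1.16 ± 0.32 (SE, adjusted p = 0.0189) for BAG5 and -1.17 ± 0.29 (SE, adjusted p = 0.0118) for HSF1. Among knockouts it was 2.10 ± 0.54 (SE, adjusted p = 0.0160) for HSPB8, 2.55 ± 0.63 (SE, adjusted p = 0.0136) for HSPA1L, 1.82 ± 0.36 (SE, adjusted p = 0.00439) for DNAJB5, -3.17 ± 0.50 (SE, adjusted p = 0.00125) for BAG1 and -1.14 ± 0.32 (SE, adjusted p = 0.0218) for BAG5. HSPB7 passed in both as well, with adjusted p = 0.00151 and 0.00277 in edgeR's test, while DNAJB12 and HSPA12A were no longer called among knockouts.

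**Figure D2:**
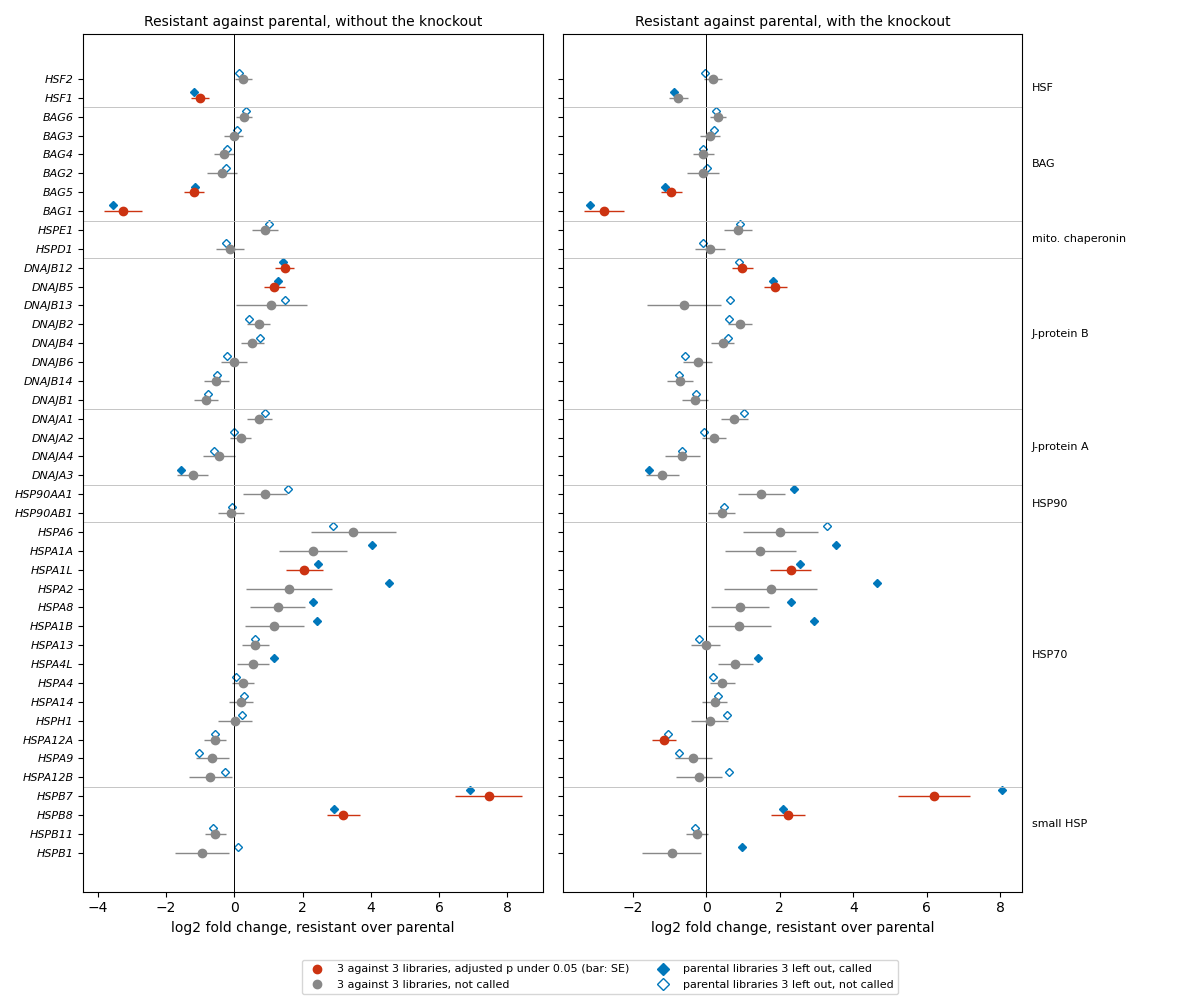
Points give the log2 fold change (x axis) of the 42 tested members, grouped by role, for resistant over parental cells without the knockout (left) and with it (right). Circles use all libraries with SE bars, red where the adjusted p is under 0.05, and diamonds leave out the parental libraries 3. HSPA1A and HSPA2 move furthest right when these are left out, while HSPB8, BAG1 and BAG5 stay called on either side.

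Among the small heat shock proteins, HSPB8 and HSPB7 rose. HSPB8 (ENSG00000152137, chr12:119178642-119221131), which works with BAG3 in selective autophagy, was at 5.32, 1.22 and 1.81 CPM in parental libraries 1 to 3 and 19.0, 28.9 and 28.6 in resistant ones. In the knockouts it was at 9.12, 5.74 and 6.21 and 34.6, 24.7 and 39.7 CPM. Every resistant-line library lay above every parental-line library. The log2 fold change was 3.19 ± 0.49 (SE, adjusted p = 0.000540) and, among knockouts, 2.23 ± 0.46 (SE, adjusted p = 0.00452).

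HSPB7 (ENSG00000173641, chr1:16014028-16019594), best known from heart muscle, had 1 read in all parental libraries together and 7.18, 3.96 and 2.73 CPM in resistant libraries. The ratio of resistant to parental was 236 (95% exact counting interval 41.9 to 9355). Among knockouts, 1 read stood against 2.62, 2.33 and 0.741 CPM, a ratio of 104 (18.2 to 4140.5). Adjusted p was 0.000191 and 0.000908, and the intervals cover counting error only. Of 4 muscle markers none reached 1 CPM in any group.

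HSPB1 (HSP27, ENSG00000106211, chr7:76302544-76304295) is a heat-inducible holdase that also binds actin. Its level was 31.8, 41.8 and 159 CPM in parental, 35.2, 54.2 and 432 in parental knockout, 32.9, 54.0 and 33.8 in resistant and 89.5, 77.9 and 103 in resistant knockout libraries. The highest values by far were those of the 2 parental-line libraries 3, and resistant and parental libraries overlapped with and without the knockout. With all libraries the log2 fold change among knockouts was -0.95 ± 0.79 (SE, adjusted p = 0.413). Without the libraries 3 it was 0.97 ± 0.31 (SE), so the direction turned. In resistant against parental cells it was -0.95 ± 0.80 (SE, adjusted p = 0.402) with all libraries and 0.11 ± 0.31 (SE) without them. HSPB11, an intraflagellar transport subunit, was lower without overlap in resistant cells but did not pass the test (log2 fold change -0.57 ± 0.30 (SE, adjusted p = 0.184)).

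Of the HSP70 genes, HSPA1L was the member that rose in both comparisons with all libraries. HSPA1L (ENSG00000204390, chr6:31809619-31815065), the HSP70 most known from testis, was at 1.14, 0.576 and 1.76 CPM in parental, 4.55, 5.85 and 4.15 in resistant, 1.35, 0.258 and 1.44 in parental knockout and 5.00, 5.32 and 4.88 in resistant knockout libraries. All 6 resistant-line libraries were above all 6 parental-line libraries, at low levels. It rose by a log2 fold change of 2.05 ± 0.56 (SE, adjusted p = 0.0158) and 2.30 ± 0.56 (SE, adjusted p = 0.0110) among knockouts. The first call was lost without parental library 1 (adjusted p = 0.0504), parental library 2 (0.0676) or resistant library 2 (0.0521). HSPA1L lies head to head with HSPA1A, 398 bases apart, and its RefSeq promoter window holds the same GAATATTC letters at chr6:31815437-31815444.

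HSPA1A and HSPA1B, the stress-inducible HSP70 genes, did not pass the test with all libraries. HSPA1A (ENSG00000204389, chr6:31815464-31817946) was at 5.74, 4.42 and 41.3 CPM in parental and 10.0, 3.23 and 72.9 in parental knockout libraries. Resistant libraries had 84.2, 85.9 and 83.9 CPM and resistant knockout libraries 61.8, 56.7 and 120.0. Resistant and parental libraries did not overlap, but both parental-line libraries 3 reached toward the resistant range, and in the knockouts the groups overlapped. With all libraries the log2 fold change was 2.30 ± 0.98 (SE, adjusted p = 0.0987). Among knockouts it was 1.47 ± 0.96 (SE, adjusted p = 0.286). Without the libraries 3 these values were 4.03 ± 0.55 (SE) and 3.52 ± 0.53 (SE).

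HSPA1B (ENSG00000204388, chr6:31827735-31830255) followed with 8.01, 7.43 and 40.5 CPM in parental, 6.66, 4.58 and 60.8 in parental knockout, 45.0, 34.5 and 46.4 in resistant and 32.7, 30.5 and 70.9 in resistant knockout libraries. Its log2 fold change was 1.17 ± 0.86 (SE, adjusted p = 0.335) with all libraries and 2.42 ± 0.43 (SE) without the libraries 3. HSPA1A and HSPA1B share 69.3% and 70.1% of their 75-base transcript windows, so reads cannot be fully assigned to either and the 2 genes are not independent. The ratio of HSPA1A to HSPA1B counts was 0.595 to 1.50 in parental-line libraries and 1.69 to 2.49 in resistant-line libraries, a difference described here without a test.

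HSPA8 (HSC70, ENSG00000109971, chr11:123057489-123063230) is the constitutive HSP70 and also uncoats clathrin vesicles. It was at 182, 299 and 1026 CPM in parental and 208, 291 and 1481 in parental knockout libraries. In resistant libraries it was at 800.1, 1147 and 1666 CPM and in resistant knockout libraries at 679, 729.5 and 2342. The parental-line libraries 3 lay within the resistant range, so the groups overlapped. The log2 fold change was 1.26 ± 0.80 (SE, adjusted p = 0.258) with all libraries and 2.31 ± 0.60 (SE) without the libraries 3. Among knockouts the values were 0.92 ± 0.79 (SE, adjusted p = 0.424) and 2.29 ± 0.60 (SE), the latter with the high resistant knockout library 3 kept in. HSPA1A and HSPA1B together came to between 2.68% and 16.2% of the HSPA8 counts in a library.

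HSPA2, the HSP70 of spermatocytes, was chosen for its values: it was at 0.538, 0.769 and 14.1 CPM in parental and 0.802, 0.774 and 16.9 in parental knockout libraries, against 32.2, 10.8 and 4.05 in resistant and 24.8, 22.7 and 14.6 in resistant knockout libraries. Without the libraries 3 its log2 fold change was 4.54 ± 0.82 (SE). HSPA4L (ENSG00000164070, chr4:127781821-127840733), a nucleotide exchange factor of the HSP110 kind, was at 8.07, 8.39 and 21.3 CPM in parental and 13.4, 22.6 and 19.6 in resistant libraries, with 1.15 ± 0.33 (SE) without the libraries 3. In the knockouts HSPA4L was at 5.66, 5.94 and 16.1 CPM in parental-line and 15.1, 13.6 and 19.1 in resistant-line libraries. With all libraries neither gene passed the test, with adjusted p = 0.368 for HSPA2 and 0.403 for HSPA4L.

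HSPH1 (HSP110, ENSG00000120694, chr13:31134974-31162388), a heat-inducible exchange factor, was at 74.1, 105 and 135 CPM in parental, 72.3, 120.4 and 217 in parental knockout, 70.2, 92.0 and 157 in resistant and 91.0, 84.6 and 259.8 in resistant knockout libraries. Library 3 was the highest of each group, and the groups overlapped (log2 fold change 0.02 ± 0.50 (SE, adjusted p = 0.984), resistant against parental). HSPA12A (ENSG00000165868, chr10:116671192-116850236), a distant HSP70 relative, fell in resistant against parental knockouts, from 53.0, 23.1 and 53.5 to 19.6, 19.8 and 18.8 CPM (log2 fold change -1.16 ± 0.33 (SE, adjusted p = 0.0225)). Without the knockout it was at 49.0, 26.9 and 40.3 in parental and 22.2, 25.0 and 30.8 CPM in resistant libraries and did not pass. The HSPA12A call was lost without both libraries 3 (adjusted p = 0.0633), and it was also lost in 5 of the 6 fits without a single knockout library (0.0514 to 0.0757), with scaling by library size alone (0.0584) and in the fit on only the libraries compared (0.0560).

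HSPA13 (ENSG00000155304, chr21:14371115-14383484), a microsomal HSP70 relative, was at 58.9, 140.1 and 102 CPM in parental, 58.2, 113 and 60.6 in parental knockout, 236, 101 and 121 in resistant and 77.6, 87.4 and 64.5 in resistant knockout libraries. HSPA6, a strictly heat-inducible HSP70, stayed below 1.2 CPM in every library, with 2 reads in parental and 27 in resistant libraries (ratio 13.3, 95% exact counting interval 3.33 to 115, adjusted p of the fit 0.0532). The mitochondrial HSPA9 was at 1012, 899 and 318 CPM in parental and 312, 508 and 606 in resistant libraries, overlapping. HSPA4, HSPA12B and HSPA14 did not pass in any comparison.

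Neither gene of the HSP90 pair passed in any comparison with all libraries. HSP90AA1 (ENSG00000080824, chr14:102080738-102139699), the heat-inducible HSP90, was at 338, 476 and 1150.1 CPM in parental and 238, 320.5 and 1025 in parental knockout libraries. It was at 616, 1368 and 1689.8 CPM in resistant and 957, 948 and 2567 in resistant knockout libraries. The groups overlapped through the parental-line libraries 3. The log2 fold change was 0.90 ± 0.64 (SE, adjusted p = 0.317) and 1.50 ± 0.65 (SE, adjusted p = 0.112) among knockouts. Without the libraries 3 these values were 1.58 ± 0.56 (SE) and 2.38 ± 0.58 (SE), the latter with the high resistant knockout library 3 kept in.

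HSP90AB1 (ENSG00000096384, chr6:44246166-44253888), the constitutive HSP90, was at 867, 1213 and 1143 CPM in parental, 874, 1282 and 1304 in parental knockout, 602, 1132 and 1267 in resistant and 1191, 1144 and 2266 in resistant knockout libraries. All 4 groups overlapped, with log2 fold changes of -0.10 ± 0.37 (SE, adjusted p = 0.862) and 0.41 ± 0.37 (SE, adjusted p = 0.446) in resistant against parental cells without and with the knockout. The ratio of HSP90AA1 to HSP90AB1 counts in one library was 0.250 to 0.392 in the parental-line libraries 1 and 2, 1.01 and 0.786 in their libraries 3, and 0.804 to 1.33 in the 6 resistant-line libraries. Parental library 3 lay within the resistant-line range and parental knockout library 3 just below it.

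**Figure D3:**
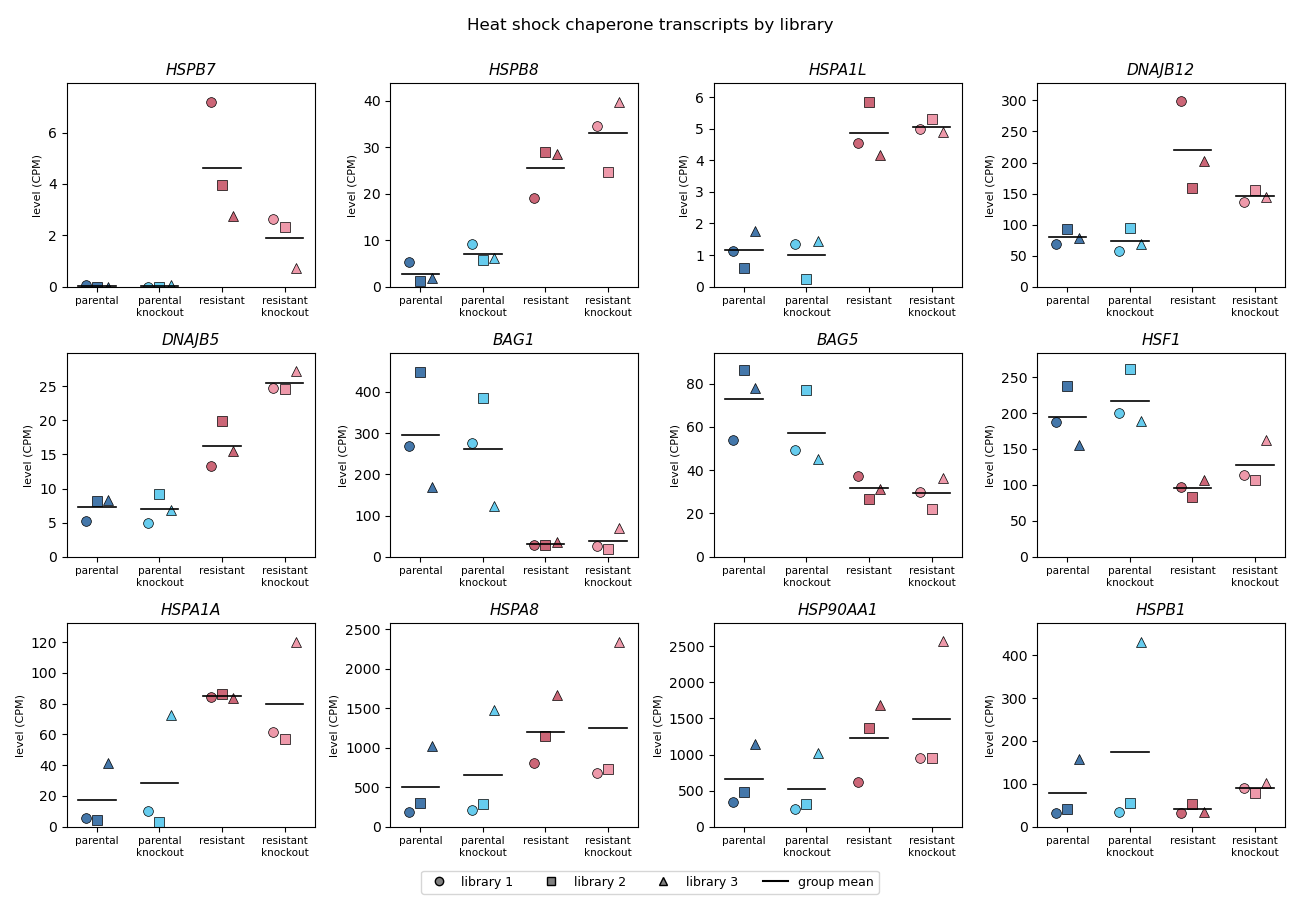
Each panel gives the level in CPM (y axis, linear from 0) of a member in the 12 libraries, with symbols for libraries 1 to 3 and a line at the group mean. In HSPA1A, HSPA8, HSP90AA1 and HSPB1 the triangles of library 3 lie above the circles and squares of both parental groups, while in HSPB8 and BAG1 the resistant and parental lines are apart in all libraries.

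Of the J-proteins, DNAJB12 and DNAJB5 rose. DNAJB12 (ENSG00000148719, chr10:72332830-72355230), an ER-membrane protein that recruits HSP70 from the cytosol, was at 68.1, 93.3 and 77.8 CPM in parental and 299.8, 159 and 202 in resistant libraries. In the knockouts it was at 57.0, 95.1 and 68.7 and 136, 155 and 145 CPM. All resistant-line libraries were above all parental-line ones. Its log2 fold change was 1.47 ± 0.29 (SE, adjusted p = 0.00280) and 0.98 ± 0.29 (SE, adjusted p = 0.0250) among knockouts. The latter call was lost without both libraries 3 (adjusted p = 0.0720) and without any 1 of parental knockout libraries 1 and 3 or resistant knockout libraries 1 and 2 (0.0550 to 0.0957).

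DNAJB5 (ENSG00000137094, chr9:34989641-34998900) was at 5.26, 8.13 and 8.39 CPM in parental and 13.4, 19.9 and 15.5 in resistant libraries. In the knockouts it was at 4.96, 9.16 and 6.84 and 24.8, 24.5 and 27.3 CPM, and the lines did not overlap. Its log2 fold change was 1.16 ± 0.31 (SE, adjusted p = 0.0137) and 1.87 ± 0.31 (SE, adjusted p = 0.00122) among knockouts. Without parental library 1 or resistant library 2 the first call was lost (adjusted p = 0.0593 and 0.0633).

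DNAJB1 (HSP40, ENSG00000132002, chr19:14514770-14529770) is the classic heat-inducible partner of HSP70. It was at 106, 206 and 179 CPM in parental, 107, 178 and 162 in parental knockout, 75.9, 91.8 and 107 in resistant and 109.9, 72.6 and 176 in resistant knockout libraries, with overlap. Its log2 fold change was -0.84 ± 0.35 (SE, adjusted p = 0.0953) and did not pass. DNAJB14 (ENSG00000164031, chr4:99896248-99946726), an ER-membrane relative of DNAJB12, was at 45.1, 75.7 and 65.8 CPM in parental, 30.1, 54.9 and 43.6 in parental knockout, 67.0, 32.5 and 29.5 in resistant and 25.9, 32.6 and 19.6 in resistant knockout libraries.

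DNAJA3 (TID1, ENSG00000103423, chr16:4425805-4456775), the mitochondrial J-protein, was at 185, 223 and 83.0 CPM in parental, 229, 273 and 98.8 in parental knockout, 47.6, 66.1 and 95.5 in resistant and 65.4, 74.0 and 121 in resistant knockout libraries. The parental-line libraries 3 were the low ones, so the groups overlapped. The log2 fold change was -1.23 ± 0.45 (SE, adjusted p = 0.0570) with all libraries and -1.56 ± 0.36 (SE) without the libraries 3. DNAJA1, DNAJA2, DNAJA4, DNAJB2, DNAJB4, DNAJB6 and DNAJB13 did not pass with all libraries. Of these, DNAJB2, a neuronal J-protein, was higher in resistant cells without overlap in both comparisons, with log2 fold changes of 0.71 ± 0.33 (SE, adjusted p = 0.129) and 0.92 ± 0.33 (SE, adjusted p = 0.0626).

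The mitochondrial chaperonin genes HSPD1 and HSPE1 share a bidirectional promoter and encode the folding chamber and its lid. HSPD1 (ENSG00000144381, chr2:197486581-197516737) was at 409, 601 and 392 CPM in parental, 567, 632 and 411 in parental knockout, 242, 472 and 563 in resistant and 359.7, 398 and 963 in resistant knockout libraries. HSPE1 (ENSG00000115541, chr2:197499994-197503457) was at 67.5, 59.2 and 82.6, 103, 65.1 and 106, 55.0, 176 and 158 and 139, 156 and 202 CPM in the same order. Neither passed the test in resistant against parental cells, with log2 fold changes of -0.13 ± 0.42 (SE, adjusted p = 0.841) for HSPD1 and 0.89 ± 0.38 (SE, adjusted p = 0.0948) for HSPE1. The 2 genes share 281 exon bases on opposite strands in the annotation, and HSPE1 also shares 192 with the readthrough gene HSPE1-MOB4.

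Of the BAG genes, BAG1 and BAG5 fell. BAG1 (ENSG00000107262, chr9:33247820-33264720), which also binds BCL2 and hands HSP70 clients to the proteasome, was at 269.8, 449 and 170.2 CPM in parental and 29.1, 27.9 and 36.0 in resistant libraries. In the knockouts it was at 276, 386 and 122 and 25.4, 19.2 and 68.6 CPM. Every resistant-line library lay below every parental-line library, also below the lower libraries 3. BAG1 changed by a log2 fold change of -3.26 ± 0.56 (SE, adjusted p = 0.00118) and -2.79 ± 0.55 (SE, adjusted p = 0.00322) among knockouts. Measured against BAG6, which did not pass in any comparison, BAG1 was at 0.488 to 1.87 times its counts in parental-line and 0.0700 to 0.220 times in resistant-line libraries. BAG6 was itself higher without overlap in both comparisons (log2 fold changes 0.28 and, among knockouts, 0.31), which adds to the gap in this ratio.

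BAG5 (ENSG00000166170, chr14:103556544-103562831), an exchange factor with several BAG domains, was at 53.8, 86.3 and 78.1 CPM in parental and 37.1, 26.8 and 31.5 in resistant libraries. In the knockouts it was at 49.5, 77.1 and 44.9 and 29.9, 22.2 and 36.4 CPM. The lines did not overlap. Its log2 fold change was -1.19 ± 0.29 (SE, adjusted p = 0.00946) and -0.95 ± 0.29 (SE, adjusted p = 0.0309) among knockouts, and the latter call was lost without parental knockout library 2 (adjusted p = 0.137), resistant knockout library 1 (0.0775) or resistant knockout library 2 (0.111), and in the fit on only the libraries compared (0.0674). BAG3 (ENSG00000151929, chr10:119651370-119677819), the heat-inducible partner of HSPB8, was at 49.4, 50.6 and 60.6 CPM in parental, 49.8, 50.5 and 68.0 in parental knockout, 43.7, 53.9 and 61.0 in resistant and 54.9, 41.6 and 83.8 in resistant knockout libraries. BAG3 overlapped in all groups, with a log2 fold change of -0.02 ± 0.27 (SE, adjusted p = 0.968) in resistant against parental cells, while HSPB8 rose. BAG2 and BAG4 did not pass.

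HSF1, the master factor of the heat shock response, fell in resistant cells. HSF1 (ENSG00000185122, chr8:144291591-144314722) was at 188, 238 and 156 CPM in parental and 97.2, 83.0 and 107 in resistant libraries, without overlap. In the knockouts it was at 199, 261 and 189 and 113, 107 and 162 CPM, also without overlap. Its log2 fold change was -1.02 ± 0.27 (SE, adjusted p = 0.0129), and -0.76 ± 0.26 (SE, adjusted p = 0.0520) among knockouts, which missed the threshold. The first call was lost without parental library 2 (adjusted p = 0.0701) or resistant library 2 (0.0583), and without the libraries 3 the second value was -0.89 ± 0.29 (SE). HSF1 acts after its protein is modified and joined into trimers, which counts of its transcript do not measure. HSF2 (ENSG00000025156, chr6:122399546-122433119) was at 36.1, 45.2 and 32.6 CPM in parental, 37.9, 52.7 and 29.9 in parental knockout, 39.9, 50.02 and 45.7 in resistant and 46.2, 47.8 and 41.5 in resistant knockout libraries, overlapping.

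The shift of library 3 was alike in both parental groups. Relative to the mean of libraries 1 and 2, library 3 was at 21.6 and 21.4 times for HSPA2, 8.14 and 11.0 for HSPA1A, 5.25 and 10.8 for HSPA1B, 4.32 and 9.65 for HSPB1, 4.26 and 5.93 for HSPA8 and 2.83 and 3.67 for HSP90AA1, in parental and parental knockout cells in turn. It was lower for HSPA9 (0.333 and 0.344), DNAJA3 (0.407 and 0.393) and BAG1 (0.474 and 0.369). At least 2-fold higher were 7 of 42 members in parental library 3, beside 6.47% of all genes, and 10 of 42 in the parental knockout, beside 9.23%. At least 2-fold lower were 3 and 4 members, beside 4.81% and 7.51%. In the same order, library 3 was at 1.21 and 1.36 times for BAG3, 1.15 and 1.13 for DNAJB1 and 1.51 and 2.25 for HSPH1. Other genes with the 3-unit element were DNAJA1 (1.40 and 1.71), HSP90AB1 (1.10 and 1.21), HSPD1 (0.777 and 0.686) and DNAJB6 (0.622 and 0.447). HSPA6, which also holds it, had 0 reads in parental library 3 and 6 in parental knockout library 3. The cause of the library 3 shift was not tested. These values describe single libraries and carry no test.

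**Figure D4:**
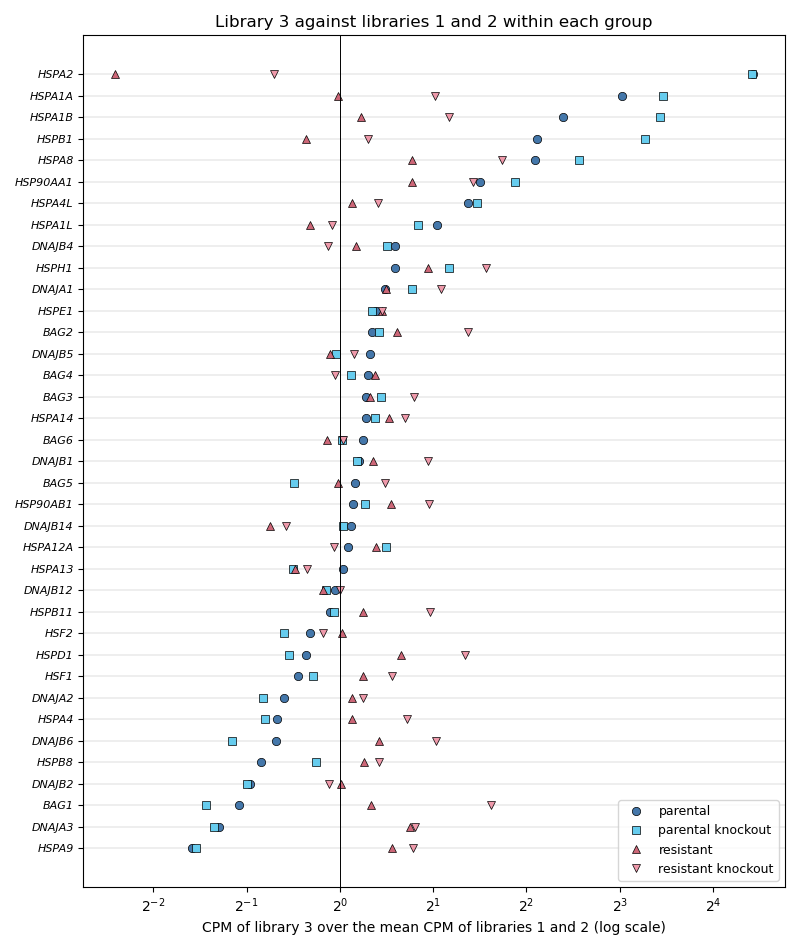
Points give the level of library 3 divided by the mean of libraries 1 and 2 (x axis, log scale) for 37 of the 42 tested members in each of the 4 groups, and 5 members with few reads are left out. HSPA2, HSPA1A, HSPA1B, HSPB1 and HSPA8 lie to the right in both parental groups, at ratios of 4.26 or more, while HSPA9 lies to the left at 0.333 and 0.344.

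In the fit without a replicate block, the double knockout called no member. In parental cells 0 of 42 passed edgeR's test and 0 passed DESeq2, beside 0% of all genes, and 1 member, HSPB8, had an unadjusted p under 0.05, beside 3.00%. The knockout's median log2 fold change over members was 0.10, beside 0.02 over all genes. HSPB8 was higher in all 3 parental knockout libraries than in any parental one, with a log2 fold change of 1.34 ± 0.46 (SE, adjusted p = 1), and of 1.18 ± 0.57 (SE, adjusted p = 1) without the libraries 3. The libraries of the 2 parental groups deviate together by number, and with the replicate number as a block HSPB8 rose by 1.50 ± 0.30 (SE), adjusted p = 0.0329 in edgeR's test, 1 of 42 members beside 0.858% of all genes. HSPB11 was the other member higher without overlap, at 55.4, 54.3 and 50.9 CPM in parental and 59.7, 58.2 and 56.6 in parental knockout libraries. Groups did not overlap for 2 members that were higher and 0 that were lower, beside 3.20% and 3.38%.

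In resistant cells 0 of 42 members passed in edgeR's test and 0 in DESeq2, beside 0.212% of all genes, and 1 member, HSPA13, had an unadjusted p under 0.05, beside 7.95%. The median log2 fold change was 0.18, beside 0.04. HSPB1, DNAJB5 and HSF1 were higher in the knockout without overlap, and HSPA13, HSPA12A, DNAJB12 and HSPB7 lower, beside 8.02% and 7.17% of all genes. The log2 fold changes were 1.16 ± 0.80 (SE, adjusted p = 0.792) for HSPB1 and 0.65 ± 0.30 (SE, adjusted p = 0.629) for DNAJB5. They were -0.996 ± 0.398 (SE, adjusted p = 0.538) for HSPA13 and -1.28 ± 0.62 (SE, adjusted p = 0.644) for HSPB7. HSP90AB1 and HSPA8 were led by the high library 3 of the resistant knockout, at 2266 and 2342 CPM.

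The knockout effect itself was compared between the lines. No member passed in edgeR's test or in DESeq2, beside 0.0279% of all genes, and 0 had an unadjusted p under 0.05, beside 3.78%. The difference of log2 fold changes (resistant minus parental) was 0.71 ± 0.43 (SE, adjusted p = 1.000) for DNAJB5 and -0.96 ± 0.64 (SE, adjusted p = 1.000) for HSPB8, the members with the smallest p. The knockout comparisons share control libraries with the resistance comparisons, so their directions are not independent of them.

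Chaperone genes outside the set are given by list. Of 16 ER chaperones, 12 rose and 0 fell in resistant against parental cells, beside 15.2% and 12.8% of all genes, with a median log2 fold change of 1.46, beside 0.02. They include CRELD2 (3.34 ± 0.38 (SE, adjusted p = 0.0000591)), SDF2L1 (3.04 ± 0.39 (SE, adjusted p = 0.000155)) and the disulfide isomerase PDIA4 (2.18 ± 0.40 (SE, adjusted p = 0.00188)). HSPA5 (BiP), the ER HSP70, did not pass (0.83 ± 0.58 (SE, adjusted p = 0.308)). Without the libraries 3, 9 of the 16 were past the threshold and higher, beside 14.6%. Among knockouts 5 rose, beside 13.6%, and 1, DNAJB9, fell, beside 10.2%. In the knockout of resistant cells the list's median was -0.91, beside 0.04 for all genes, with 0 of 16 past the adjusted test and 11 at an unadjusted p under 0.05, beside 7.95%.

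Of 20 HSP90 and HSP70 co-chaperones, 1 rose and 1 fell in resistant cells, beside 15.2% and 12.8% of all genes. FKBP5, a steroid receptor co-chaperone, rose (2.33 ± 0.38 (SE, adjusted p = 0.000878)), and NUDCD3 fell (-0.68 ± 0.22 (SE, adjusted p = 0.0363)). The median log2 fold change of the list was -0.31, beside 0.02 for all genes. Of 16 subunits and partners of the cytosolic chaperonin TRiC and of prefoldin, 1 fell, TCP1 (-1.26 ± 0.34 (SE, adjusted p = 0.0151)), beside 12.8% of all genes, with a median of 0.22, beside 0.02.

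Of 12 further genes that heat shock is known to induce, 3 rose and 2 fell in resistant cells, beside 15.2% and 12.8% of all genes, with a median of 0.52, beside 0.02. The transcript of clusterin (CLU), an extracellular chaperone, was at a mean of 11.4 CPM in parental and 588.5 CPM in resistant cells and rose (5.68 ± 0.85 (SE, adjusted p = 0.000489)), and UBB and FOS also rose. The autophagy receptor SQSTM1 fell from 732 to 128 CPM (-2.51 ± 0.52 (SE, adjusted p = 0.00379)), and ZFAND2A, which encodes a proteasome-associated protein, fell too. Among knockouts the same 5 genes passed in the same directions, beside 23.9% of all genes. Of 12 mitochondrial chaperones and proteases DNLZ rose and LONP1, the matrix protease, fell (-1.86 ± 0.42 (SE, adjusted p = 0.00617)), beside 15.2% and 12.8% of all genes. Of 30 class C J-proteins, 5 of which stand on another list, 3 rose and 3 fell, which is 6 of 30 beside 28.0% of all genes either way. Of 5 regulators of HSF1 none passed with all libraries, and 2 were past the threshold and higher without the libraries 3, beside 14.6%. No gene of these lists passed in either knockout comparison.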

How the data were processed

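The authors deposited raw read counts per gene for 12 libraries. Per the labels, these came from poly(A) RNA and a directional kit. The tools were STAR 2.7.10a, Trim Galore 0.6.10 and featureCounts 2.0.1 on GRCh38, per the submitters' processing notes. Not given in the sources used here were the strand setting and annotation, so overlapping genes may share reads, and 22 members share exon bases with another gene in GENCODE 29. In 2 columns the resistant line's name was misspelled, and the other letters of the name gave the match.

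From these counts, edgeR 4.0.16 (R 4.3.3) kept 17947 genes with filterByExpr, scaled them with TMM and fitted a mean per group over 12 libraries with a robust quasi-likelihood test. P-values of 5 contrasts were adjusted by Benjamini-Hochberg over all genes tested, with a threshold of 0.05. The SE is the log2 fold change over the root of F. The script was tested on simulated data. Pairs of libraries within a group differed by 26.8 to 205 chi-square per degree of freedom, so none was a duplicate.

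Deviations of same-numbered libraries correlated over 17947 genes at 0.71, 0.843 and 0.832 between the parental groups, so the numbers were taken to pair these, from the data only. They were 0.595, -0.24 and 0.689 between the resistant groups, which were not taken as paired. Alternatives were 2 other scalings, no filter, DESeq2 1.42.0, fewer libraries, a replicate block and an added fold threshold.

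Members and lists were chosen with earlier results of these data known. Values per library are given for 13 chaperones fixed by name, members called in any contrast and the 3 largest changes per direction and contrast (at least 1 CPM in the higher group). HSPA2, HSPA6, HSPA9, HSPB11 and DNAJB2 were added after their values were seen.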

Additional observations from a re-analysis of the deposited data

How the results depend on the processing

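The counts of members called moved by over 1.5 times in these settings. In resistant against parental cells (8 members), no filter beyond 1 count gave 15, the replicate block over all 12 libraries gave 13 (30.9% of all genes), leaving out both parental libraries 3 gave 14, and leaving out each library in turn gave 5 to 11. Among knockouts (8 members), no filter gave 13, leaving out both libraries 3 gave 15, and leaving out each library gave 5 to 13. With the replicate block within backgrounds, the knockout called 1 member in parental cells, and in resistant cells it called 2, HSPB1 (1.19, adjusted p = 0.0169) and HSPA13 (-0.91, adjusted p = 0.0464), beside 5.23% of all genes. Those resistant numbers were not taken to pair the libraries, and resistant library 2 did not correlate best with its own number. HSPB1 among knockouts reversed to 0.97 without both libraries 3. Of the other values for named members, 2289 kept direction and side of the threshold, 59 moved, 51 newly passed and 24 no longer passed. HSPB8, HSPB7 and BAG1 stayed called in both resistance comparisons under all 19 settings. Library size alone moved the median of all genes among knockouts to 0.15 and the share of higher calls from 57.1% to 68.2%. No fit with a replicate block within backgrounds was possible for the resistance comparisons, whose groups lie in different backgrounds. The cause of these shifts was not tested.

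The fit on only the libraries compared was not run for the difference of the knockout effects, which needs all 4 groups. A count of 0 allows up to 3 reads, 0.148 to 0.194 CPM by library, which covers counting error only.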
